A study of Mus musculus with 6 samples.

Results

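Quiescent type B cells are the resting neural stem cells of the adult subventricular zone (SVZ), and 50 cells that the authors' cell table assigns to the neural stem and progenitor cells (NSPCs) and to the subtype of quiescent B cells are described here, out of 222 NSPCs and 658 cells in all. Single-cell RNA was measured by mCEL-Seq2, which counts transcripts as unique molecular identifiers (UMIs), in the SVZ of adult Nestin-CreERT2:R26-yfp mice that had received tamoxifen. The mice were uninjured, or were taken 1 day (PT D1) or 7 days (PT D7) after photothrombosis (PT), a cortical stroke made by lighting the cortex after an injection of Rose Bengal, and the SVZ was dissected on the side of the lesion. NSPCs were sorted as YFP+ cells and microglia as CD11b+ CD45low cells. The YFP label was placed by a tamoxifen-inducible Cre under the Nestin promoter, so it marks cells with a history of Nestin expression and not type B cells alone. Each condition had 2 libraries, and neither the number of mice behind a library nor its plate is given. A difference between conditions and one between plates therefore cannot be told apart.

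Uninjured libraries held 3 and 14 quiescent cells, PT D1 libraries 4 and 14, and PT D7 libraries 4 and 11. Of their 301177 UMIs, 14388 and 104192 were uninjured, 23939 and 79276 came from PT D1, and 24840 and 54542 from PT D7. A single cell held 1286 to 21118 UMIs with a median of 5302.5, and no cell name occurred in more than 1 library. One library of each condition therefore carried most of the cells, and the other rested on 3 or 4 cells. In the first PT D7 library 1 cell held 12691 of the 24840 UMIs, 215 of them from microglial marker genes. The CPM of that library thus depend largely on this cell. The median share of mitochondrial UMIs was 10.4% over the 50 cells and 17.2% in the first PT D1 library, the highest of the 6. A single predicted gene, Gm10800, had 194517 UMIs per 1000000 UMIs (CPM) in quiescent cells and 94712 CPM in activated type B cells, and all levels are given in CPM with this gene included.

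Type B cells are radial glia-like astroglia that line the lateral ventricle. In the quiescent state they carry astrocyte proteins and do not divide, whereas activated type B cells enter the cell cycle and give rise to transit-amplifying type C cells and then to neuroblasts, the type A cells that migrate to the olfactory bulb. Bone morphogenetic protein (BMP) signals with their Id target genes and Notch signals are known to hold these stem cells at rest, and injury at a distance is known to wake some of them.

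The label was first checked against 5 astroglial markers. Gfap, the intermediate filament of astroglia, stood at 963 CPM in quiescent cells and 64.9 CPM in activated type B cells. The glycolytic enzyme Aldoc stood at 2434 against 69.7 CPM. The secreted chaperone Clu stood at 4018 against 48.0 CPM. In type C cells and in neuroblasts each of these 3 genes was at most 65.2 CPM. The glutamate transporter Slc1a3 had 1876 CPM against 401 CPM, and the gap junction protein Gja1 had 664 CPM against 45.6 CPM. At least 4 of the 5 markers had a UMI in 44 of 50 quiescent cells (88%), in 5 of 45 activated type B cells, in 0 of 47 type C cells, in 0 of 80 neuroblasts and in 4 of 416 microglia. With every cell thinned to 1000 UMIs the count was 23 of 50 quiescent cells (46%) and 0 in each of the other 4 kinds. Gfap was the marker found in the fewest quiescent cells, with a UMI in 50% of them against 4.81% of microglia, whose median depth of 4854.5 UMIs was close to theirs. The authors drew the subtypes from these same counts, so the marker levels and every ratio between subtypes below are descriptions without a test.

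Cells of other types were looked for with further marker lists. Markers of ependymal cells summed to 106 CPM in quiescent cells, with Rarres2 the most abundant and Ak7, Hdc, 1110017D15Rik and Sntn at 0 UMIs, and markers of endothelial cells to 83.0 CPM. Of the 9 oligodendrocyte precursor markers Pdgfra, Cspg4, Sox10 and Gpr17 had 0 UMIs and the other 5 were detected. The 9 summed to 820.1 CPM in quiescent cells, of which Cspg5 made up 730.5 CPM, against 375 CPM in activated type B cells, 137 CPM in type C cells and 287 CPM in neuroblasts. Markers of microglia summed to 2015 CPM against 26872 CPM in microglia themselves, with C1qb the most abundant (760.4 CPM) and Aif1 at 0 UMIs. They reached 1460 and 1190.1 CPM in the uninjured libraries, 1922 and 1639.8 CPM at PT D1, and 9259 and 1027 CPM at PT D7, where 1 cell of the first library held 215 microglial UMIs among its 12691. Markers of parenchymal astrocytes, which share much of their expression with quiescent type B cells, summed to 1952 CPM against 834 CPM in activated type B cells, and 8 of the 9 such genes with at least 10 UMIs were at least 2-fold higher in quiescent cells. The markers used here thus do not separate a quiescent type B cell from a sorted parenchymal astrocyte.

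**Figure D1:**
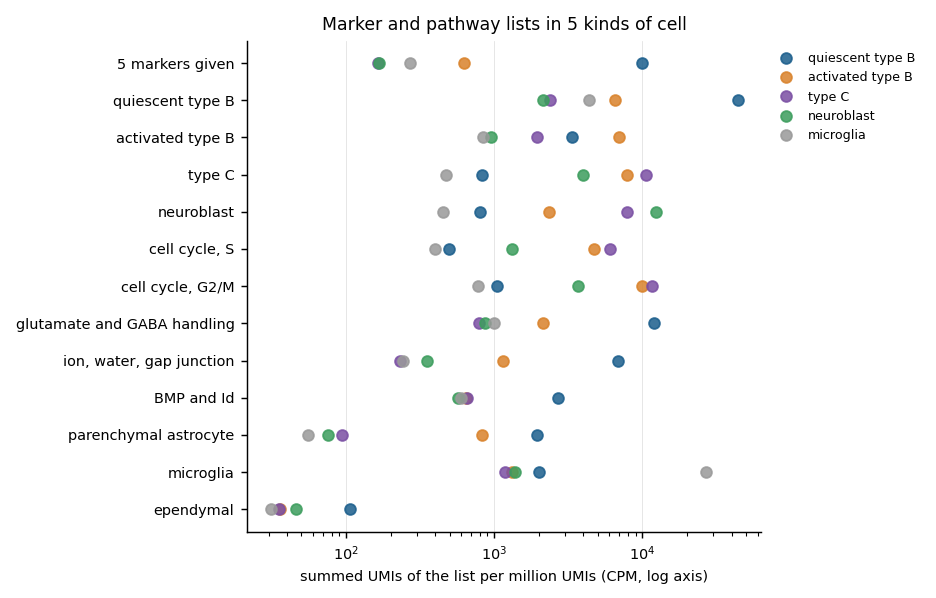
Summed UMIs of 13 gene lists scaled to counts per total (CPM, log axis) in 5 kinds of cell, each point the pooled value of all cells of that kind. Quiescent type B cells stand to the right on the astroglial lists, at 44286 CPM on the quiescent type B list, and to the left of activated type B and type C cells on both cell cycle lists.

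Against activated type B cells, quiescent cells were marked by higher astroglial and lower cell cycle transcripts. Among genes with more than 3 UMIs in activated cells, the highest ratios belonged to Clu (83.6-fold), Aldoc (34.9-fold), the Rac exchange factor Prex2 (31.1-fold), the transcriptional inhibitor Id3 (19.5-fold), Gfap (14.8-fold), Id2 (14.7-fold) and Gja1 (14.6-fold). Further high ratios were those of Pbxip1 (13.6-fold), the coagulation starter F3 (13.3-fold), the actin-associated Fam107a (12.6-fold), the metalloproteinase inhibitor Timp3 (12.1-fold) and the sodium pump regulator Fxyd1 (11.8-fold). The lipid enzymes Pla2g7 and Mgll and the GABA receptor subunit Gabrb1 stood at 289, 332 and 262 CPM in quiescent cells, where activated cells held 1, 3 and 3 UMIs in all, and also ranked among the highest. Each of these 15 genes was higher in quiescent cells in 5 of the 5 libraries that held both kinds. The ranking took well detected genes only and did not include Aqp4, which was found in 23 of 50 quiescent cells.

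At the other end were genes of DNA replication and mitosis. The ubiquitin-conjugating enzyme Ube2c had 9.96 CPM in quiescent and 406 CPM in activated cells, cyclin A2 (Ccna2) 9.96 against 379.5 CPM, and the kinase subunit Cks1b 6.64 against 209 CPM, each on 2 or 3 UMIs in quiescent cells. The proliferating cell nuclear antigen-associated factor 2810417H13Rik was 22.9-fold lower, the topoisomerase Top2a 18.0-fold, the proliferation marker Mki67 13.1-fold, the ribonucleotide reductase subunit Rrm1 14.2-fold, the histone chaperone Nasp 15.9-fold and the G1 kinase Cdk6 14.8-fold. Hes6, a helix-loop-helix factor of committed progenitors, was 19.5-fold lower. All 15 genes with the lowest ratios were lower in quiescent cells in 5 of 5 libraries. After thinning to 1000 UMIs, 0 of 50 quiescent cells held 3 or more UMIs of the 35 S phase genes, against 34 of 45 activated type B cells, 43 of 47 type C cells and 15 of 80 neuroblasts. For the 45 G2/M genes the counts were 5, 34, 42 and 18 cells. Over the 777 genes with at least 200 CPM in either kind, 148 (19.0%) were at least 2-fold higher and 315 (40.5%) at least 2-fold lower in quiescent cells, with a median log2 ratio of -0.72. With Gm10800 left out of the totals and the genes of at least 200 CPM chosen anew, the counts were 239 and 292. The counts of higher and lower genes thus depend on that gene, which holds a larger share of the quiescent cells' UMIs. The genes chosen anew are not the same 777, and the part of this in the shift was not tested.

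**Figure D2:**
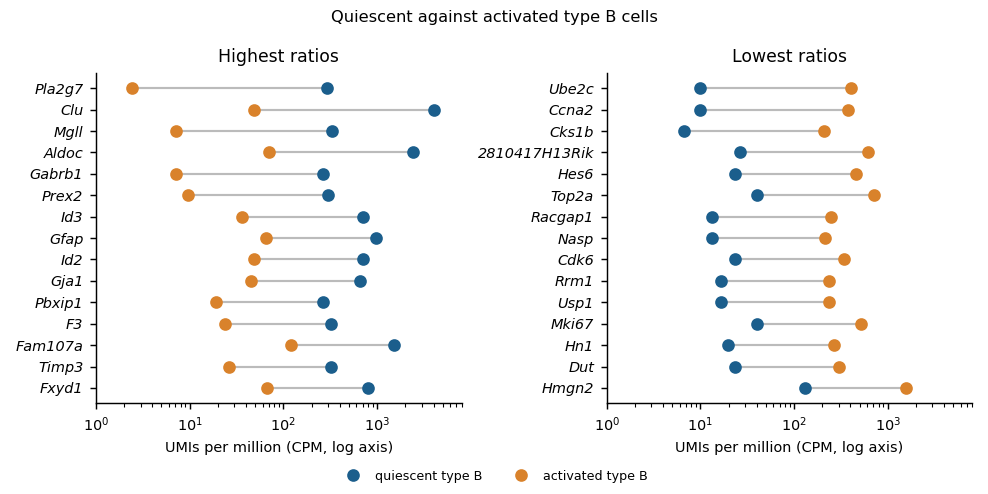
The 15 highest and 15 lowest ratios between quiescent and activated type B cells among well detected genes that reach 200 CPM in the higher kind, with the pooled level in each kind on a log axis (CPM). Clu runs from 48.0 CPM in activated to 4018 CPM in quiescent cells, and Hmgn2 from 129 CPM in quiescent to 1573 CPM in activated cells.

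Genes were then read by role. Of 11 genes of glutamate and GABA handling with at least 10 UMIs in both kinds together, 9 were at least 2-fold higher in quiescent cells and 0 lower (median log2 ratio 2.15, against -0.26 over the 8409 genes of the same depth, of which 1203 were at least 2-fold higher and 2068 lower). The glutamate transporter Slc1a2 reached 5528 CPM against 723 CPM, and glutamine synthetase (Glul) 3234 against 646 CPM. Of 13 ion, water and gap junction genes 12 were at least 2-fold higher (median 2.69). The sodium pump subunit Atp1b2 was 7.34-fold higher, the bicarbonate transporter Slc4a4 11.3-fold, the chloride channel protein Ttyh1 11.3-fold and Mlc1 5.53-fold, and the water channel Aqp4 stood at 442 CPM against 3 UMIs in activated cells.

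Lipid genes were mixed. Of 27, 13 were at least 2-fold higher and 2 lower (median 0.94). The lipoprotein Apoe was 5.33-fold higher, the lipid phosphatase Plpp3 8.99-fold, the acyl-CoA synthetases Acsl3 and Acsl6 4.44-fold and 6.06-fold, and the lipoprotein receptor Lrp1 7.08-fold. The genes that were lower were Thrsp, a regulator of lipid synthesis, at 99.6 against 442 CPM, and the fatty acid binding protein Fabp5 at 99.6 against 223 CPM. The cholesterol synthesis genes Cyp51 (49.8 and 50.4 CPM) and Fdft1 (79.7 and 79.3 CPM) were at nearly the same level in both. Of 17 genes of fatty acid oxidation 6 were higher and 1 lower (median 0.41), with the rate-limiting Cpt1a at 83.0 against 26.4 CPM. Of 16 glycolysis genes 5 were higher and 0 lower (median 0.72), with Aldoa 4.24-fold higher and Gapdh at 1043 against 1441 CPM.

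BMP and Notch genes, the pathways of stem cell rest, were read next. Of 12 genes of BMP and Id signaling 6 were at least 2-fold higher and 1 lower (median 1.03). Id4, which like Id2 and Id3 blocks helix-loop-helix activators, was 5.45-fold higher, the BMP receptor Bmpr1a 2.83-fold and Bmpr1b 2.76-fold, whereas Id1 stood at 129 against 81.7 CPM. Of 16 Notch genes 2 were higher and 5 lower (median 0.17). The receptor Notch2 was 3.46-fold and the target Hes5 3.05-fold higher, while Notch1 had 119.5 against 154 CPM. Of the Notch ligands, Jag1 was 5.06-fold lower in quiescent cells, Dll1 had 2 UMIs against 34, and Dll3 and Dll4 had 0 UMIs against 27 each.

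Transcription factors of neural stem cells gave no common direction, with 3 of 22 higher and 5 lower (median -0.16). Sox9 was 4.05-fold, Klf9 4.12-fold and Foxo1 2.23-fold higher, Sox2 had 611 against 689 CPM, and Nfib was 2.71-fold and Nfix 2.22-fold lower. Of 14 genes of the activated type B list 8 were at least 2-fold lower and 3 higher (median -1.47). The growth arrest protein Gas1 was 4.83-fold lower and the epidermal growth factor receptor Egfr 3.60-fold. The 3 higher ones were Hes5, the growth factor receptor Fgfr3 and the cell cycle regulator Rgcc, the last with 17 UMIs in quiescent and 0 in activated cells.

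Growth factors and their receptors were higher in 11 of 17 and lower in 2 (median 1.62). The neurotrophin receptor Ntrk2 was 7.50-fold, the endothelin receptor Ednrb 7.22-fold, the sphingosine phosphate receptor S1pr1 6.63-fold, the growth factor Ptn 6.29-fold and Fgfr1 3.73-fold higher. The other member besides Egfr that was lower was the growth factor Mdk, at 246 against 739.8 CPM. Of 24 genes of the niche matrix and adhesion 17 were higher and 0 lower (median 2.11). These included the proteoglycans Bcan (11.3-fold) and Cspg5 (7.42-fold), the matrix protein Sparcl1 (10.2-fold), the thrombospondin Thbs4 (8.93-fold) and the integrin Itgb8 (4.08-fold). Of 20 genes of antioxidant and metal handling 9 were higher and 0 lower (median 0.76), led by the peroxiredoxin Prdx6 (8.28-fold), the metallothionein Mt1 (4.85-fold), the glutathione transferase Gstm1 (4.72-fold) and the cystine transporter Slc7a11 (4.65-fold).

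Among cyclins, their kinases and inhibitors, 7 of 13 were at least 2-fold lower and 1 higher in quiescent cells (median -1.01). Cyclin D2 (Ccnd2) had 551 against 3065 CPM and its kinase Cdk4 139 against 625 CPM. Over all conditions the inhibitor Cdkn1b stood at 176 and 187 CPM and the inhibitor Cdkn1a at 232 and 221 CPM, but of the Cdkn1a UMIs of quiescent cells 63 came from PT D1, 5 from uninjured mice and 2 from PT D7, so its level depends on the mix of conditions. Cytosolic ribosomal protein genes took 2.41% of the UMIs of quiescent cells, 5.77% of activated type B cells, 4.53% of type C cells and 3.49% of neuroblasts. At 1000 UMIs a quiescent cell showed a median of 555.5 genes, against 631, 613 and 554.5 in the other kinds in the same order.

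Against type C cells and neuroblasts as 1 group, the astroglial genes stood further apart. Gja1 was 114-fold, Gfap 103-fold, Fam107a 81.0-fold, Clu 73.1-fold, the syndecan Sdc4 63.9-fold, Mt1 55.7-fold and Id3 54.7-fold higher in quiescent cells. Cells of PT D1 held 931 of the 1373 quiescent UMIs of Mt1 and 190 of the 290 of Gfap. The ratios of both genes, here and above, therefore depend on the mix of conditions. Other pooled ratios may depend on it too, since PT D1 gave 18 of the 50 quiescent cells and 25 of the 45 activated type B cells. The neurotensin receptor Ntsr2 had 332 CPM, the protease Htra1 468 CPM and the claudin Cldn10 222 CPM, where type C cells and neuroblasts held 1, 2 and 1 UMIs. In the opposite direction the neuroblast factors Sp9 and Igfbpl1 had 0 UMIs in quiescent cells and were at least 29.8-fold and 20.5-fold higher in type C cells and neuroblasts (0 taken as 3 UMIs over all quiescent cells). The neuronal cytoskeleton genes Dcx, Stmn2 and Tubb3 were 40.5-fold, 30.6-fold and 24.6-fold lower in quiescent cells. All 30 genes with the highest and lowest ratios in this comparison had the same direction in 6 of 6 libraries.

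The 50 cells differed among themselves. Aldoc and Slc1a3 had a UMI in every quiescent cell, with 229 to 7270.1 CPM (median 2075) and 166 to 7218 CPM (median 1484). Clu ranged from 0 to 12173 CPM with a median of 3159 CPM, and Gja1 from 0 to 1986 CPM with a median of 574 CPM. Gfap was at 0 in 25 of the 50 cells, with a median of 62.5 CPM and a highest value of 5269.6 CPM. Of the wider list, Glul, Slc1a2, Prdx6 and the peptide processing enzyme Cpe were also found in each of the 50 cells, while Aqp4 was found in 23 and Slc4a4 in 21. At this depth a cell at 0 for Gfap or Aqp4 is one in which the transcript was not detected, and its absence is not shown.

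The share of quiescent cells among the NSPCs was compared between the conditions. They were 17 of 75 NSPCs in uninjured mice (22.7%, exact 95% Clopper-Pearson interval 13.8 to 33.8%), 18 of 71 at PT D1 (25.4%, 15.8 to 37.1%) and 15 of 76 at PT D7 (19.7%, 11.5 to 30.5%), and the intervals cover counting error only. The 2 libraries gave 18.8% and 23.7%, 21.1% and 26.9%, and 26.7% and 18.0% in the same order. The libraries of the conditions overlapped. An exact two-sided permutation test of 2 against 2 libraries cannot give a p below 0.33, and no test of the share is given here.

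Changes after PT were tested on the UMIs summed over the quiescent cells of each library. Of 506 genes tested, 12 were called at PT D1 against uninjured at an adjusted p under 0.05 (2.37%), 5 higher (0.988%) and 7 lower (1.38%), by the quasi-likelihood test of edgeR with Benjamini-Hochberg adjustment. The 5 that rose were the immediate early genes Egr1 and Junb, the cell cycle inhibitor Cdkn1a, the metallothionein Mt2 and Gfap. The 7 that fell were Ttr, Crym, Pygb, Lars2, 4930402H24Rik, Igfbp5 and Plpp3. Of the 506 genes, 89 had an unadjusted p under 0.05 at PT D1. Both PT D1 libraries lay above both uninjured ones in 158 of the 506 genes and below both in 97. For PT D7 against uninjured these counts were 105 and 68. Libraries that do not overlap are therefore common among all genes tested. Every call rests on libraries of 3 to 14 cells, and without the second uninjured library, which held 14 of the 17 uninjured cells, 0 genes were called in any of these comparisons.

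Egr1, a zinc finger factor switched on within minutes of stimulation, had 0 and 19.2 CPM in the uninjured libraries, 1169.6 and 656 CPM at PT D1 and 0 and 18.3 CPM at PT D7. Both PT D1 libraries stood far above the other 4, with a log2 fold change of 5.36 ± 0.75 (SE, n = 2 libraries a condition, adjusted p = 0.000911 in edgeR), and the 80 UMIs of PT D1 came from 11 of 18 cells. Junb, a subunit of the AP-1 factor, had 0 and 28.8 CPM, 418 and 492 CPM and 80.5 and 73.3 CPM in the same order. It was higher in both PT D1 libraries than in any other, with a log2 fold change of 3.95 ± 0.75 (SE, n = 2 libraries a condition, adjusted p = 0.0104 in edgeR). Its partner Jun had 69.5 and 96.0 CPM (uninjured), 334 and 479 CPM (PT D1) and 322 and 128 CPM (PT D7) and was not called (2.04 on the log2 scale, adjusted p = 0.0756 in edgeR, or 0.0315 with the replicate number as a block). Fos, with 0 and 19.2 CPM (uninjured), 209 and 278 CPM (PT D1) and 0 and 0 CPM (PT D7), was below the count filter of this fit. With a minimum count of 3 it was called at PT D1 (adjusted p = 0.0475 in edgeR). Of the 29 immediate early genes 4 passed the count filter, Egr1 and Junb through their PT D1 counts, so no count or median over the list is given. The 28 of these genes in the matrix summed to 1182 and 1075 CPM in the uninjured libraries, 4344 and 4983 CPM at PT D1 and 1651 and 1338 CPM at PT D7.

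Cdkn1a encodes p21, an inhibitor of cyclin-dependent kinases. It had 0 and 48.0 CPM in the uninjured libraries, 710.1 and 580.3 CPM at PT D1 and 0 and 36.7 CPM at PT D7. The PT D1 libraries stood above all others, with a log2 fold change of 3.71 ± 0.68 (SE, n = 2 libraries a condition, adjusted p = 0.00881 in edgeR), and 16 of the 18 PT D1 cells held a UMI. The other members of the cyclin list tested were the cyclin Ccnd2 and the inhibitor Cdkn1b, and neither was called. Ccnd2 had 904 and 547 CPM (uninjured), 376 and 555 CPM (PT D1) and 443 and 587 CPM (PT D7), and Cdkn1b had 69.5 and 144 CPM (uninjured), 292 and 189 CPM (PT D1) and 322 and 128 CPM (PT D7). Mki67 stayed between 0 and 88.3 CPM in the 6 libraries.

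Mt2, a cysteine-rich protein that binds zinc and copper, had 1043 and 1632 CPM in the uninjured libraries, 6976 and 11517 CPM at PT D1 and 2858 and 1522 CPM at PT D7. It rose at PT D1 with a log2 fold change of 2.60 ± 0.42 (SE, n = 2 libraries a condition, adjusted p = 0.0034 in edgeR), and its UMIs came from all 18 cells of that day. Mt2 lies on chromosome 8 from 94898819 to 94900207 and Mt1 from 94905710 to 94906955 (GRCm39). Mt1 had 4170.1 and 1958 CPM (uninjured), 8396 and 9208 CPM (PT D1) and 3099.8 and 1852 CPM (PT D7), again highest in both PT D1 libraries. The edgeR adjusted p of Mt1 at PT D1 was 0.0541, above the threshold (log2 fold change 1.51 ± 0.39), and 0.00908 with the replicate number as a block. Of 13 genes of antioxidant and metal handling tested, Mt2 was the one that rose, beside 5 of all 506 genes (0.988%), and the median of the 13 was 0.28, beside 0.03 over all genes. A lncRNA, Gm45774, overlaps Mt2 on the opposite strand in the GENCODE annotation, and nothing read here says whether the counting used strand.

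Promoter windows from RefSeq, 250 bases before to 50 after each transcription start, were searched for the letters of 5 motifs on both strands. These were TGCGCNC and TGCACNC, the core forms of the metal response element, TGANTCA of AP-1, TTCNNNGAA of STAT factors, and TGACGTCA of CREB. Of the 12 genes changed at PT D1 or PT D7, 9 matched the table, with 11 windows. Mt2 is shown because it held the most matches and Junb because it rose with Egr1 at PT D1, each up to the first annotated UTR, from the gene's own strand on GRCm39, with matches to TGCGCNC or TGCACNC (either strand) in capitals. The Mt2 stretch is chr8:94898996-94899131 (plus strand), in an intron of the longer Mt2 transcripts in GENCODE, and the Junb stretch is chr8:85705378-85705627 (minus strand), upstream of the gene at 85701113 to 85705359.
Mt2: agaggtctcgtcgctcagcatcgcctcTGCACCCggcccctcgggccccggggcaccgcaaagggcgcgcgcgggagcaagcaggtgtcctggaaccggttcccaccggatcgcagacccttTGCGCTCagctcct
Junb: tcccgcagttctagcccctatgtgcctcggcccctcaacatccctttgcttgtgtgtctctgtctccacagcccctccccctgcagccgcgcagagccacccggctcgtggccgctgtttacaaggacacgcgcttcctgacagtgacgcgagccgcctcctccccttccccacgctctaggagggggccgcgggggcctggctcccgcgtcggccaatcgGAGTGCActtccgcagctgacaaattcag

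In Mt2 the match TGCACCC began 223 bases and TGCGCTC 128 bases before the start, and beyond the printed stretch the window held the AP-1 letters TGACTCA 79 bases before the start, GTGTGCA 50 bases before it and GTGCGCA just after it. In Junb GAGTGCA began 29 bases before the start. Among 32544 distinct promoter windows of the table, 15.5% held TGCGCNC, 12.6% TGCACNC, 7.79% TGANTCA, 8.33% TTCNNNGAA and 1.80% TGACGTCA. Gfap held TTCCAGGAA across its start and 4930402H24Rik held TTCCGGGAA 80 bases before one start and TGCGCGC 47 bases before the other. Cdkn1a, Igfbp5, Lars2, Plpp3 and Pygb had none of these letters in their windows. A match is a description of the letters and not of a bound site.

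Gfap had 417 and 355 CPM in the uninjured libraries, 877 and 2132 CPM at PT D1 and 926 and 623 CPM at PT D7. Both PT D1 values lay above the uninjured ones, with a log2 fold change of 1.94 ± 0.46 (SE, n = 2 libraries a condition, adjusted p = 0.0369 in edgeR). The lower of them lay below the higher PT D7 value, but all 23 Gfap UMIs of that PT D7 library came from 1 cell, the one with 215 microglial UMIs. A UMI was found in 7 of 17 uninjured, 13 of 18 PT D1 and 5 of 15 PT D7 cells, and 1 cell held 67.4% of the uninjured UMIs. The call was lost in 6 of 16 alternatives, DESeq2 (adjusted p = 0.113) and the fit without the second PT D1 library (log2 fold change 1.13) among them. Vim, the other astroglial filament of the list, had 626 and 317 CPM (uninjured), 585 and 1211 CPM (PT D1) and 684 and 660.0 CPM (PT D7), with a log2 fold change of 1.11 ± 0.45 and an edgeR adjusted p of 0.198. Of 35 genes of reactive astroglia 6 were tested, of which Gfap was called higher and Igfbp5 lower, beside 5 higher and 7 lower of all 506 genes. The log2 fold change was positive in 5 of the 6 at PT D1 (median 1.19) and in 6 of 6 at PT D7 (median 0.68), beside 259 and 271 of all 506 genes (medians 0.03 and 0.06). This is a description only, since a gene could pass the count filter through its PT counts alone. Lcn2 and Timp1 had 0 UMIs in quiescent cells. Of the cytokine and STAT3 genes Socs3, an inhibitor induced by STAT3, had 0 and 19.2 CPM (uninjured), 41.8 and 441 CPM (PT D1) and 40.3 and 18.3 CPM (PT D7), and the hyaluronan receptor Cd44 had 0 and 38.4 CPM (uninjured), 459.5 and 239.7 CPM (PT D1) and 0 and 128 CPM (PT D7), but both were below the count filter. With a minimum count of 3 Cd44 was called at PT D1 (log2 fold change 2.99 ± 0.82, adjusted p = 0.038 in edgeR). Markers of pericytes and smooth muscle summed to 0 and 96.0 CPM (uninjured), 376 and 240 CPM (PT D1) and 40.3 and 147 CPM (PT D7). Of these 8 markers Rgs5, Vtn, Kcnj8, Abcc9 and Higd1b had 0 UMIs in quiescent cells, and the other 3 were detected. Tagln, one of the 3, was called at PT D1 in the same fit (log2 fold change 6.35, edgeR adjusted p = 0.00652). Its fitted change from PT D1 to PT D7 had the same size, -6.35. The part of such cells in the changes of PT D1 was not tested.

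**Figure D3:**
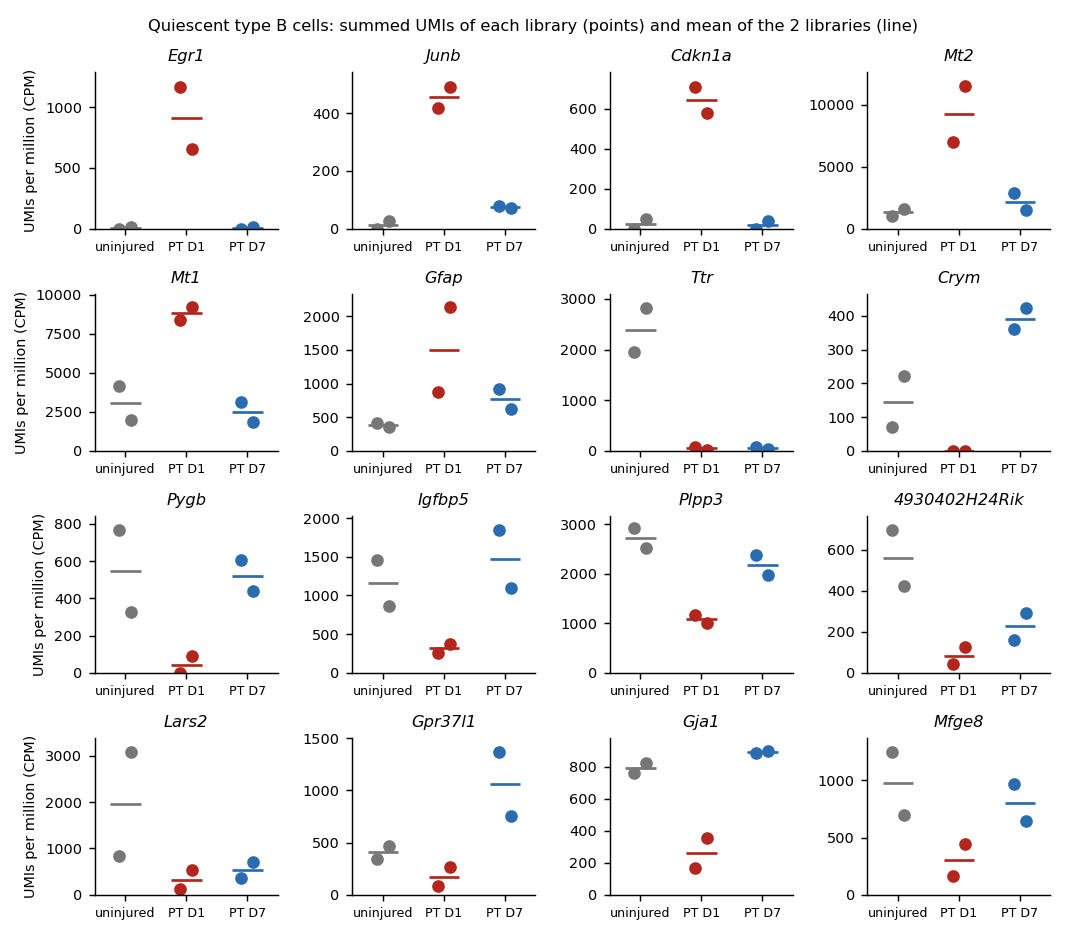
UMIs scaled to library totals (CPM) of 16 genes in the quiescent type B cells, summed within each library (points, 2 libraries a condition) with the mean of the libraries as a line. Egr1, Junb, Cdkn1a, Mt2 and Mt1 stand highest in both PT D1 libraries, Crym, Pygb, Igfbp5, Plpp3, Gja1 and Mfge8 lowest in both, and Ttr is high in the uninjured libraries alone.

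The fall with the lowest p was that of Ttr, transthyretin, the thyroid hormone carrier made by the choroid plexus. It had 1946 and 2812 CPM in the uninjured libraries, 83.5 and 12.6 CPM at PT D1 and 80.5 and 36.7 CPM at PT D7, with a log2 fold change of -6.33 ± 0.63 (SE, n = 2 libraries a condition, adjusted p = 2.87e-05 in edgeR). The uninjured UMIs came from all 17 cells. The other cells of the same libraries moved with it: other NSPCs had 1336 and 3488 CPM (uninjured), 33.4 and 31.0 CPM (PT D1) and 34.7 and 44.0 CPM (PT D7), and microglia 9841 and 4167 CPM (uninjured), 553 and 424 CPM (PT D1) and 539 and 186 CPM (PT D7). The choroid plexus list, 12 of whose 13 genes are in the matrix, summed to 2363 and 3321 CPM (uninjured), 251 and 177 CPM (PT D1) and 161 and 128 CPM (PT D7) in quiescent cells, most of it Ttr, with 9 of the 12 genes detected and Folr1, Kcnj13 and Aqp1 at 0 UMIs. The one other member that was tested, the lysophospholipase Enpp2, had 278 and 394 CPM (uninjured), 167 and 37.8 CPM (PT D1) and 0 and 73.3 CPM (PT D7). Its PT D1 and PT D7 libraries lay below the uninjured ones, but it was not called in quiescent cells, with a log2 fold change of -2.38 ± 0.80 at PT D1 (SE, edgeR adjusted p = 0.114) and -2.89 ± 0.88 at PT D7 (adjusted p = 0.413). At PT D1 it fell in other NSPCs (-5.24, edgeR adjusted p = 0.000154) and in microglia (-3.87, adjusted p = 0.00157). The part of choroid plexus RNA in the fall of Ttr was not tested.

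Crym, a cytosolic thyroid hormone binding protein, had 69.5 and 221 CPM in the uninjured libraries, 0 and 0 CPM at PT D1 and 362 and 422 CPM at PT D7. Uninjured cells held 24 UMIs, PT D1 cells 0 and PT D7 cells 32, found in 5 of 17, 0 of 18 and 4 of 15 cells. With 0 taken as 3 UMIs over the PT D1 cells, the uninjured cells were at least 6.96-fold and the PT D7 cells at least 13.9-fold higher. It was called lower at PT D1 in edgeR (adjusted p = 0.0369), where the fitted value of -6.32 depends on the prior count. Pygb, the brain form of glycogen phosphorylase, had 765 and 326 CPM (uninjured), 0 and 88.3 CPM (PT D1) and 604 and 440.0 CPM (PT D7). It fell at PT D1 in both libraries, with a log2 fold change of -2.85 ± 0.67 (SE, n = 2 libraries a condition, adjusted p = 0.0369 in edgeR).

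Plpp3, which degrades bioactive lipid phosphates, had 2919 and 2524 CPM in the uninjured libraries, 1169.6 and 997 CPM at PT D1 and 2375 and 1980.1 CPM at PT D7. It fell with a log2 fold change of -1.43 ± 0.34 (SE, n = 2 libraries a condition, adjusted p = 0.0369 in edgeR), the smallest change among the 12 genes called. Igfbp5, a binding protein of insulin-like growth factors, had 1459.5 and 864 CPM (uninjured), 251 and 378 CPM (PT D1) and 1852 and 1100.1 CPM (PT D7). It fell with a log2 fold change of -1.80 ± 0.43 (SE, n = 2 libraries a condition, adjusted p = 0.0381 in edgeR), and no PT D1 library reached an uninjured one. The unnamed gene 4930402H24Rik had 695 and 422 CPM (uninjured), 41.8 and 126 CPM (PT D1) and 161 and 293 CPM (PT D7), with a log2 fold change of -2.39 ± 0.58 (SE, n = 2 libraries a condition, adjusted p = 0.0404 in edgeR) at PT D1. These calls were lost in 11 of 16 alternatives for Plpp3, 10 of 16 for Igfbp5 and 8 of 16 for 4930402H24Rik, whose value was -3.61 without the second PT D1 library.

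Lars2, the mitochondrial leucyl-tRNA synthetase, had 834 and 3081 CPM in the uninjured libraries, 125 and 529.8 CPM at PT D1 and 362 and 715 CPM at PT D7, and 1 cell held 59.5% of the uninjured UMIs. It fell with a log2 fold change of -2.62 ± 0.61 (SE, n = 2 libraries a condition, adjusted p = 0.0369 in edgeR). The call was lost in 5 of 16 alternatives, and the value was -1.08 without the second uninjured and -4.18 without the second PT D1 library. Gm42418, a gene model at the ribosomal RNA repeat, took 0.417% and 1.30% of the uninjured UMIs, then 0.460% and 0.305% (PT D1) and 0.294% and 0.273% (PT D7), so it too was highest in the second uninjured library. Its part in the fall of Lars2 was not tested.

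Genes of astroglial functions had mostly negative fitted changes at PT D1, although few of them passed the test. Of all 506 genes 247 were negative, 12 were called and the median was 0.03. Of 10 lipid genes tested all 10 had a negative log2 fold change (median -0.65) and Plpp3 alone was called in this fit. The 30 genes of that list summed to 27801 and 20366 CPM in the uninjured libraries, 15247 and 17874 CPM at PT D1 and 23108 and 22808 CPM at PT D7. Of 9 genes of growth factors and receptors 7 were negative and Igfbp5 was called (median -0.44). Of 9 ion, water and gap junction genes 7 were negative (median -0.30), of 5 glutamate and GABA genes 5 (-0.23), of 9 stem cell transcription factors 8 (-0.81), and of 12 matrix genes 9 (-0.28). In this fit 0 genes were called in each of these 4 lists. On the quiescent type B list, 19 of 23 genes tested were negative (median -0.51), and Gfap alone was called in this fit, upwards. With the replicate number as a block, Acsl6 (edgeR adjusted p = 0.0174), Ptn (0.0269) and Cspg5 (0.0304) were also called lower, as were Gja1, S1pr1 and Bcan, given below. The counts of called genes in these lists therefore depend on the block. Over all 506 genes the block called 35 at PT D1, against 12 without it. Deviations of same-numbered libraries correlated at only 0.0105 to 0.0526 in quiescent cells, and the labels do not say what a shared number means.

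Several of these genes lay close to the threshold. Gja1 had 765 and 825 CPM in the uninjured libraries, 167 and 353 CPM at PT D1 and 886 and 898 CPM at PT D7 (log2 fold change -1.59 ± 0.43, edgeR adjusted p = 0.0623). S1pr1 had 904 and 845 CPM (uninjured), 292 and 366 CPM (PT D1) and 886 and 1045 CPM (PT D7), with -1.46 on the log2 scale and an edgeR adjusted p of 0.0678. Bcan had 904 and 672 CPM (uninjured), 209 and 265 CPM (PT D1) and 483 and 623 CPM (PT D7), with -1.71 on the log2 scale and an edgeR adjusted p of 0.0519. In each of them both PT D1 libraries lay below the other 4, but none was called in this fit. Of all 506 genes, 97 had both PT D1 libraries below both uninjured ones. With the replicate number as a block their edgeR adjusted p was 0.0174, 0.0304 and 0.0153. Without mitochondrial genes Gja1 and Bcan were called as well. The remaining markers of these cells had smaller fitted changes, with Clu at -0.16, Slc1a3 at -0.18 and Aldoc at -0.87 on the log2 scale.

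Ribosomal protein genes had mostly positive fitted changes. Of 57 tested, 56 had a positive log2 fold change at PT D1 with a median of 0.70, and 0 were called. Their share of the UMIs was 2.93% and 3.43% at PT D1, against 1.62% and 1.84% in uninjured mice and 2.52% and 1.94% at PT D7. The mitochondrial share of UMIs was 16.5% and 9.64% at PT D1, against 12.5% and 11.9% in uninjured mice and 14.0% and 9.70% at PT D7. It was highest in the first PT D1 library, and its part in the changes of that day was not tested.

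**Figure D4:**
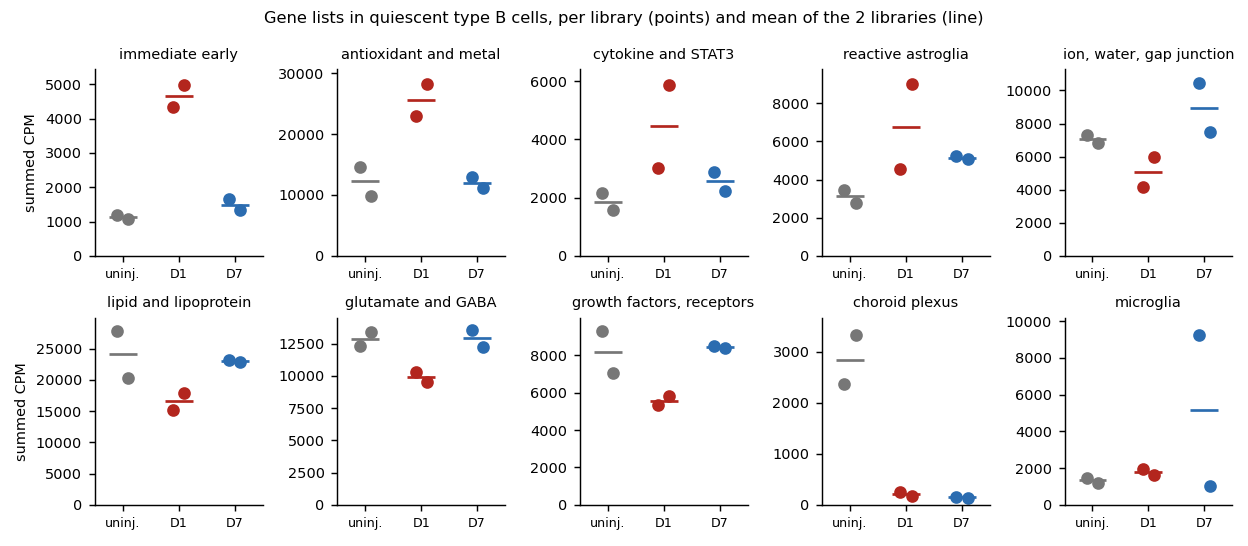
Summed UMIs scaled to library totals (CPM) of 10 gene lists in the quiescent type B cells of each library (points, 2 a condition) with the mean as a line. Immediate early and antioxidant and metal genes are highest in both PT D1 libraries, lipid, glutamate and growth factor genes are lowest there, choroid plexus genes are high in the uninjured libraries alone, and the microglial list is high in 1 PT D7 library.

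At PT D7 few differences from the uninjured state were detected. Of the 506 genes 1 was called against uninjured (0.198%), Ttr, with a log2 fold change of -5.56 ± 0.60 (SE, n = 2 libraries a condition, adjusted p = 7.59e-05 in edgeR), and 21 had an unadjusted p under 0.05. The list medians at PT D7 against uninjured were 0.02 for the 13 genes of antioxidant and metal handling, -0.21 for the 10 lipid genes, -0.03 for the 23 quiescent type B genes and 0.16 for the 57 ribosomal protein genes, beside 0.06 over all genes. The 6 genes of reactive astroglia had a higher median of 0.68, with 0 called. Interferon and MHC genes, of which 3 were tested, summed to 904 and 912 CPM (uninjured), 1086 and 2006 CPM (PT D1) and 2778 and 1320 CPM (PT D7). The 2778 CPM belonged to the library whose microglial markers stood at 9259 CPM, and their part in it was not tested.

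Between PT D7 and PT D1, which shares the PT D1 libraries with the first comparison, 8 genes were called (1.58%), 4 higher at PT D7 (0.791%) and 4 lower (0.791%). The lower ones were Egr1 (-5.79, adjusted p = 0.00223), Cdkn1a (-4.46, adjusted p = 0.00808), Mt2 (-2.09, adjusted p = 0.0144) and Mt1 (-1.83, adjusted p = 0.0235), all as log2 fold changes in edgeR. The higher ones were Crym (adjusted p = 0.00808), Pygb (2.97, adjusted p = 0.0286), Igfbp5 (2.14, adjusted p = 0.0144) and Gpr37l1 in the same edgeR fit. Gpr37l1, a receptor of astroglia, had 348 and 470.3 CPM in the uninjured libraries, 83.5 and 265 CPM at PT D1 and 1369 and 752 CPM at PT D7, with a log2 fold change of 2.33 ± 0.49 (SE, n = 2 libraries a condition, adjusted p = 0.0227 in edgeR) between the PT days. Of its PT D7 UMIs 1 cell held 36.0%, and the call was lost in 6 of 16 alternatives, with 1.72 on the log2 scale (edgeR adjusted p = 0.116) when the cell with most microglial UMIs was left out. It was not called at PT D7 against uninjured (log2 fold change 1.13, edgeR adjusted p = 0.847). Of the lists, 2 of 13 genes of antioxidant and metal handling fell, and the lipid genes had a median of 0.85 with 0 called, beside 4 higher and 4 lower of all 506 genes and a median of -0.05.

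The same libraries hold other NSPCs and microglia, whose changes at PT D1 are set beside those of the quiescent cells. Egr1 had a log2 fold change of 5.36 in quiescent cells, 1.97 in other NSPCs (edgeR adjusted p = 0.00368) and 0.70 in microglia (adjusted p = 0.456). Cdkn1a rose in all 3, by 3.71, 1.73 and 2.82 in the same order, and Mt2 by 2.60, 2.99 and 3.71. Gfap rose in other NSPCs as well (3.94, edgeR adjusted p = 0.0429), from 9.82 and 2.54 CPM to 100.2 and 61.9 CPM. The uninjured levels were near the floor, as 9.82 CPM is 1 UMI in the first uninjured library, so the size of this rise is uncertain. Pygb and Plpp3, which fell in quiescent cells, had 0.73 and 0.42 in other NSPCs, where neither was called. Activated type B cells were a larger part of the other NSPCs at PT D1 (6 of 15 and 19 of 38 cells) than in uninjured libraries (4 of 13 and 4 of 45 cells) and held more Mt2 and Gfap than type C cells and neuroblasts, with 2089.8 CPM of Mt2 against 195 and 69.5 CPM, and 64.9 CPM of Gfap against 5.06 CPM in type C cells. The part of this change in make-up in the values of other NSPCs was not tested.

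**Figure D5:**
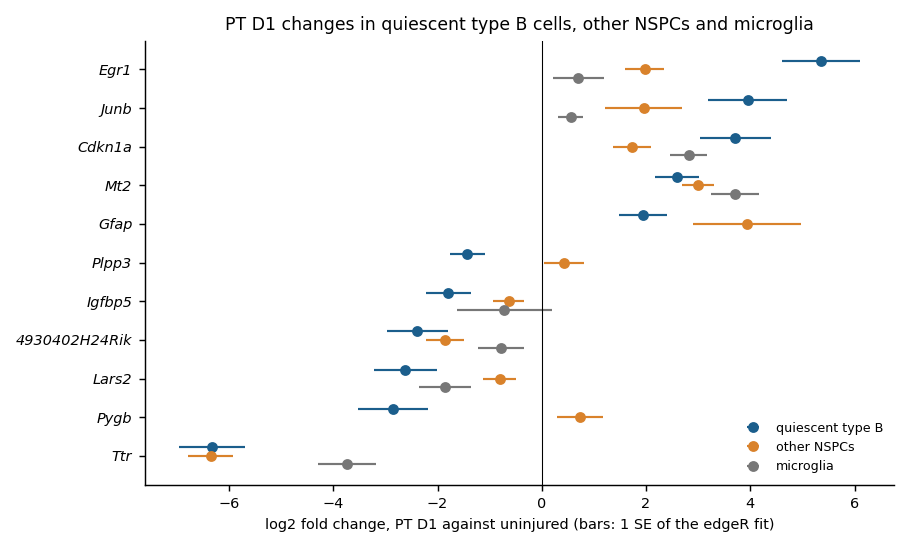
Log2 fold change at PT D1 against uninjured (bars: 1 SE of the edgeR fit) of 11 of the 12 genes called in quiescent type B cells, in those cells, in the other NSPCs and in microglia, without a point where a gene was below the count filter and without Crym, which had 0 UMIs at PT D1. Egr1 lies at 5.36 in quiescent cells and 1.97 in other NSPCs, whereas Ttr lies at -6.33 and -6.36.

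Whether a change differed between quiescent cells and the other NSPCs was tested as an interaction with the library as a block. Of 2441 genes, 2 differed at PT D1 (0.0819%), Crym and Mfge8, and 0 differed at PT D7 (0%), by edgeR with Benjamini-Hochberg adjustment. At an unadjusted p under 0.05 there were 146 and 58 genes. Mfge8, a secreted protein that bridges dying cells to phagocytes, had 1251 and 701 CPM in quiescent cells of the uninjured libraries, 167 and 441 CPM at PT D1 and 966 and 642 CPM at PT D7. In other NSPCs it had 167 and 117 CPM (uninjured), 359 and 491 CPM (PT D1) and 17.3 and 211 CPM (PT D7). Its log2 fold change at PT D1 was -1.47 in quiescent cells (edgeR adjusted p = 0.0984, not called, or 0.0304 with the replicate number as a block) and 1.61 in other NSPCs (adjusted p = 0.0253), a difference of -2.95 ± 0.67 (SE, adjusted p = 0.0127 in edgeR). Against activated type B cells only, the difference was -2.03 (edgeR adjusted p = 0.376) and was not called, and the call was lost in 7 of 13 alternatives. Activated type B cells, which held 653 CPM of Mfge8, made up more of the other NSPCs at PT D1, as above, while type C cells and neuroblasts held 53.1 and 28.3 CPM. Crym had 0 and 2.54 CPM (uninjured), 0 and 58.0 CPM (PT D1) and 0 and 23.5 CPM (PT D7) in other NSPCs, and its difference had an edgeR adjusted p of 0.000871. Both genes lie on chromosome 7 of GRCm39, Crym from 119785530 to 119801514 and Mfge8 from 78783515 to 78798825. For Pygb the difference was -3.39 ± 0.89 (SE, edgeR adjusted p = 0.0882) and for Egr1 3.58 ± 1.08 (SE, edgeR adjusted p = 0.196). With no TMM normalization 9 genes were called at PT D1, and Pygb was one of them. For these and for Junb, Cdkn1a, Mt2, Gfap, Igfbp5 and Plpp3 the difference between the kinds of cell was not called with TMM. Their larger, smaller or opposite values in quiescent cells are therefore not shown to be particular to these cells.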

How the data were processed

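Cells were sequenced by mCEL-Seq2, and the authors deposited UMI counts of 34203 genes in 658 cells with a table of cell names, UMI counts per cell, the percent of mitochondrial UMIs and the class and subtype of each cell. The authors had discarded cells with outlying UMI totals as putative doublets and kept cells above a minimum of UMIs and below a limit of mitochondrial share. They normalized them with SCTransform and named subclusters in Seurat, and condition was not part of that clustering. The submitters' processing notes name bcl2fastq 2.17.1.14 and GRCm39. The aligner and counter were not given in the material read. The 13 other columns of the cell table were not used, and the 92 spike-in entries held 0 UMIs. No doublet caller was run here, and 20 cells of mixed class stayed out of comparisons. The library of a PT D7 cell was read from the last digit of its cell name.

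Counts were summed over the quiescent cells of each of the 6 libraries (58.4% to 62.8% of their UMIs lay in tested genes) and fitted in edgeR 4.0.16 (R 4.3.3, TMM, filterByExpr with a minimum count of 10, quasi-likelihood test, Benjamini-Hochberg threshold 0.05). The 3 conditions shared one fit, and the interaction with other NSPCs had the library as a block. CPM are over all UMIs of the summed cells. The p-values measure only the spread between libraries, which may be technical. Alternatives were DESeq2 1.42.0, no TMM, other count filters, the replicate block, deeper cells, no mitochondrial genes, activated type B cells alone in the interaction and leaving out each library. Leaving out Gm10800 or the 1 quiescent cell with most microglial UMIs was chosen after seeing the data. Ratios between kinds of cell used all cells of a kind with 1 CPM added to the log2 ratio. The code was tested on simulated data. Python 3.11.15 was used for summaries.

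Genes were named from the lists or by rule. The rule took up to 10 called genes each way per comparison with a mean of at least 50 CPM, and up to 5 each way per interaction. It also took the 15 highest and lowest ratios among well detected genes of at least 200 CPM in the higher kind. Of the 37 lists, those with too few tested genes are given by levels only. The cells, lists and rules were chosen with earlier results of these data known. Sequences are from the RefSeq promoter table of GRCm38.p6, placed on GRCm39 by exact match. Some single genes of the lists are not reported here.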

Additional observations from a re-analysis of the deposited data

Results flagged for a closer look

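The change of Crym at PT D1 differed between quiescent type B cells and the other NSPCs in a test of that difference, with an interaction of -11.64 on the log2 scale (edgeR adjusted p = 0.000871). It had 0 UMIs in the quiescent cells of PT D1, so the size of this value depends on the prior count. The change of Mfge8 differed in the same test by -2.95 (edgeR adjusted p = 0.0127), with opposite signs in the quiescent cells and in the other NSPCs. It was not called against activated type B cells only (-2.03, edgeR adjusted p = 0.376) and lost its call in 7 of 13 alternatives, where Crym lost it in 3 of 13. Activated type B cells made up more of the other NSPCs at PT D1 (6 of 15 and 19 of 38 cells) than in uninjured libraries (4 of 13 and 4 of 45 cells).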

How the results depend on the processing

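The calls depend on few cells. For PT D1, PT D7 (each against uninjured) and the change from PT D1 to PT D7, the called genes numbered 12, 1 and 8 in edgeR, 3, 2 and 5 with DESeq2, 3, 1 and 3 with no count filter, and 26, 2 and 21 with a minimum count of 3. Without mitochondrial genes they were 18, 1 and 8, with Gja1, Bcan and Mt1 among the genes gained at PT D1. With the replicate block they were 35, 3 and 13. The block also called Gja1 (adjusted p = 0.0174), S1pr1 (0.0304), Bcan (0.0153), Jun (0.0315), Mfge8 (0.0304) and Mt1 (0.00908) among others at PT D1 in edgeR. The deviations of same-numbered libraries correlated at 0.0105, 0.0361 and 0.0526 in quiescent cells, at 0.0671, -0.0677 and 0.00147 in other NSPCs and at 0.226, 0.196 and 0.265 in microglia. Nothing in the labels says what a shared number means, so whether the libraries are pairs is not settled. Leaving out each library in turn gave 0 to 29, 0 to 5 and 0 to 15 calls. Without the second uninjured library there were 0, 0 and 0 calls in edgeR (75, 24 and 60 genes at an unadjusted p under 0.05). Without the first PT D7 library 29 genes were called at PT D1, without the second 4, without the first uninjured library 3 at PT D7 and 15 between the PT days, and without the second PT D1 library 5 at PT D7. In these fits the lone library of a condition is assumed to vary like the others, and the count filter passed from 417 to 1247 genes. The cause of the other shifts was not tested. The interaction at PT D1 gave 0 calls with DESeq2 (78 at an unadjusted p under 0.05), 9 with no TMM, 1 with no filter and 0 to 3 without single libraries, with 0 when either the second uninjured or the second PT D1 library was left out. At PT D7 it gave 0 to 1, with 1 call when the second PT D7 library was left out. No TMM moved the median log2 fold change of all genes from 0.03 to 0.21 at PT D1. In single genes, 258 of 360 alternative values kept direction and call, 102 kept the direction without the call and 0 reversed. Egr1, Mt2 and Ttr at PT D1 lost the call only without the second uninjured library. Without the second PT D1 library Pygb had -7.34 at PT D1 and 7.43 between the PT days, and Gpr37l1 3.56 between the PT days. Without the second uninjured library Egr1, Junb and Cdkn1a had 8.10, 7.17 and 7.64 at PT D1. Without the second PT D7 library Egr1 and Cdkn1a had -8.38 and -7.93 between the PT days, all on the log2 scale. Except for Gpr37l1, the lone library left in a condition held 0 UMIs of the gene, so these sizes depend on the prior count. The Crym interaction at PT D1 was -7.49 with DESeq2 and -6.14 without the second PT D1 library. Calls at PT D1 were lost in 6 of 16 alternatives for Pygb, 5 of 16 for Junb and 4 of 16 for Cdkn1a. Without the 1 quiescent cell with most microglial UMIs, chosen after seeing the data, the calls were 10, 1 and 8, of which 9, 1 and 7 were shared, and Gfap, Igfbp5 and Plpp3 lost theirs at PT D1. The interaction against activated type B cells only called 2 genes at PT D1, of which Crym was shared. Leaving out Gm10800, also chosen after seeing the data, raised the genes 2-fold higher in quiescent cells from 148 to 239, with the genes of at least 200 CPM chosen anew. Thinning lowered the share of cells with 4 of 5 markers to 46% in quiescent and from 11.1% to 0% in activated cells. Without single libraries the share of quiescent cells was 18.8% to 23.7% in uninjured mice, 21.1% to 26.9% at PT D1 and 18.0% to 26.7% at PT D7, and the genes 2-fold higher numbered 145 to 164 and those 2-fold lower 281 to 371. Leaving out cells with 3 or more microglial genes was not run, since it left 0 to 4 quiescent cells a library.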

Other observations

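Genes of immune and phagocytic function were also detected in the quiescent type B cells. Genes of complement, coagulation and transforming growth factor signaling summed to 5097 CPM against 488 CPM in activated type B cells, of which Clu made up 4018 and 48.0 CPM, and interferon and MHC genes summed to 1441 against 490 CPM. Of the receptors for dying cells, Mertk stood at 120 CPM against 26.4 CPM and Axl at 123 against 50.4 CPM, whereas Tyro3 stood at 16.6 against 74.5 CPM. These receptors and their ligands summed to 139 and 240 CPM in the uninjured libraries, 292 and 290 CPM at PT D1 and 765 and 458 CPM at PT D7. Microglia held 559 CPM of them, and the library at 765 CPM is the one whose microglial markers stood at 9259 CPM, against 1027 CPM in the other PT D7 library; their part in these levels was not tested. Of lysosome genes 10 of 23 were at least 2-fold higher in quiescent cells and 0 lower, beside 1203 of 8409 genes higher and 2068 lower overall. Microglia held 15217 CPM of the lysosome list, and the quiescent cells of the PT D7 library with high microglial markers held 7327 CPM against 3960.2 CPM in the other; their part in this count was not tested.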
